A study of Homo sapiens with 4 samples.

Results

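The mitochondrial ribosomal protein genes were taken from the deposited gene tables as the protein-coding genes whose symbol is MRPL or MRPS followed by a number and at most 1 letter A, B or C, together with DAP3. This gave 79 of the 58735 genes listed, 49 of them named for the large subunit (MRPL) and 30 for the small subunit (29 MRPS genes and DAP3), and they lie on 21 chromosomes. The RNA came from U251 and U87, established human glioblastoma cell lines, each left as Control or treated with brusatol (Bru). Bru, a plant compound of the quassinoid class, was given for 48 h at the concentration the study names as the IC50. The study used a higher concentration in U251 than in U87 in its viability time courses. It does not give that of the sequenced cells, so that line and concentration cannot be told apart when responses are compared. There was 1 library in each of the 4 groups, U251 Control, U251 Bru, U87 Control and U87 Bru. The sample titles give the Control by that name only. The study names DMSO alone as the control of its colony and apoptosis assays, and does not state what the sequenced Control cells received. With 1 library per condition no difference has a replicate check, and no p-value is given.

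Mitochondria keep ribosomes of their own, which translate the few proteins encoded by mitochondrial DNA, all of them subunits of the oxidative phosphorylation complexes. The ribosomal RNAs are transcribed inside the organelle, while every protein of this ribosome is encoded in the nucleus, made in the cytosol and imported. Part of the proteins have counterparts in bacterial ribosomes and the others are particular to mitochondria. The large subunit joins amino acids and holds the exit tunnel, the central protuberance and the stalk on which elongation factors land, and the small subunit reads the messenger RNA.

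The values were FPKM, fragments scaled by gene length and sequencing depth, from which whole fragments (called reads here) could be recovered. The libraries held 17083896 to 21453561 reads, and 3 reads on a gene of 1 kilobase equal an FPKM of 0.143 to 0.172. VIM stood at 606 to 701 FPKM and CD44 at 94.5 to 125 FPKM in all 4 libraries. SOX2 was at 129 and 91.2 FPKM in the U251 libraries but had 0 reads in U87 Control, GFAP did not exceed 2.42 FPKM in any library, and 6 markers of blood, vessel, epithelial and liver cells were all under 0.5 FPKM. NES was at 125 (Control) and 50.6 FPKM (Bru) in U251 and at 1.46 and 0.569 FPKM in U87, FABP7 was at 8.27 and 2.04 FPKM in U251 Control and U251 Bru and at most 0.0203 FPKM in U87, and S100B did not exceed 0.296 FPKM. Of these glioma markers, VIM and CD44 were thus high in both lines, and GFAP and S100B were low in all libraries. SOX2 and FABP7 were near absent in U87 and lower in U251 Bru than in U251 Control. NES was far lower in U87 than in U251, and lower in Bru than in Control in both lines. The part of these differences in the values below was not tested.

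Promoters are shown as a description of letters, and whether they bear on the ratios was not tested. The stretches below are, for each motif searched, that of the member with the highest U251 ratio that held it before its start. They were read from RefSeq (GRCh38.p14) and are printed from 5′ to 3′ on the gene's strand, with the motif in capitals. Counted back from the RefSeq start, the motif begins at base 8 for MRPL58, 64 for MRPL52 and 81 for MRPL17. It begins at base 136 for MRPS35, 179 for MRPS18C and 248 for MRPL54, so that not all stretches reach the start. The ETS letters CCGGAAG lie in the 120 bases before MRPL58 (chr17:75012550-75012669, plus strand), the YY1 letters AAGATGG before MRPL52 (chr14:22829821-22829878, plus strand), the E-box CACGTG before MRPS18C (chr4:83455857-83455931, plus strand), the antioxidant element TGACNNNGC before MRPS35 (chr12:27710640-27710759, plus strand), TATAAA before MRPL54 (chr19:3762432-3762551, plus strand) and the palindromic NRF1 motif before MRPL17 (chr11:6683402-6683521, minus strand).
MRPL58: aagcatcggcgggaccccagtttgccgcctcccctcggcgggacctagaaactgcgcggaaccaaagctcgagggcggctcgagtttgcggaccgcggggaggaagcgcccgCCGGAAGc
MRPL52: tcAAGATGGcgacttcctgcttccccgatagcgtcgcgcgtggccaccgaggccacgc
MRPS18C: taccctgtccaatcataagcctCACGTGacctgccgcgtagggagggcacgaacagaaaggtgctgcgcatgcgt
MRPS35: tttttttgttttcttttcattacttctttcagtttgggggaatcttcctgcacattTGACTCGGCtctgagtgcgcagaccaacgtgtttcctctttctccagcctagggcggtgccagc
MRPL54: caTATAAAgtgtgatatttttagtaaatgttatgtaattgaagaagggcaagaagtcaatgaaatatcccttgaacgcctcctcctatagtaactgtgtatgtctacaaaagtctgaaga
MRPL17: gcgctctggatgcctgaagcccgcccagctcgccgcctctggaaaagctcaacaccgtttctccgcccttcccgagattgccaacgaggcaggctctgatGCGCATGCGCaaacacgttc

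Of the 79 members, 70 matched a RefSeq promoter of 250 bases before and 50 bases after the start, and MRPL10, MRPL13, MRPL15, MRPL2, MRPL21, MRPL23, MRPL35, MRPS28 and MRPS36 did not. On either strand, the ETS letters were found in 29 of the 70 promoters (41.4%), against 10.7% of all 27305 RefSeq promoters and 20.9% of the promoters of 8719 protein-coding genes among the genes compared. The YY1 letters were found in 23 (32.9%), against 6.06% and 7.90%. At least 1 of these 2 motifs was present in 43 promoters, both in 9, and their letters overlapped in 0 of them. The E-box was found in 6 (8.57%, against 7.43% and 10.4%), the antioxidant element in 8 (11.4%, against 13.6% and 15.2%), TATAAA in 2 (2.86%, against 12% and 4.97%) and the NRF1 letters in 1 (1.43%, against 1.36% and 2.49%), and 20 promoters held no motif of the 6. Such a match is a description of letters and not a binding site. The median GC content was 60.7% in the members, 58.3% in all promoters and 65.7% in those of the protein-coding genes compared.

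In the Control libraries the members were well expressed, with a median level of 18.1 FPKM in U251 Control and 18 FPKM in U87 Control, beside 6.50 and 6.36 FPKM over the 12949 genes that reached 1 FPKM on average across the 4 libraries, which are the genes compared below. Their reads were 0.370% of all reads in U251 Control (95% exact Clopper-Pearson interval 0.367% to 0.372%) and 0.447% in U87 Control (0.444% to 0.450%). After Bru the share was 0.558% in U251 (0.554% to 0.561%) and 0.498% in U87 (0.494% to 0.501%). The interval of each Bru library lay above that of its Control, by more in U251 than in U87, and these intervals, like all those that follow, cover counting error only and not the spread between cultures. The summed level of the large subunit genes went from 1058 to 1538 FPKM in U251 (1.45-fold) and from 1365 to 1467 FPKM in U87 (1.08-fold). The summed level of the small subunit genes went from 596 to 850 FPKM in U251 (1.43-fold) and from 621 to 662 FPKM in U87 (1.06-fold). FPKM is a share of a library, so that more of these transcripts in each cell, less of other RNA, or more cells in a state that uses them cannot be told apart in bulk RNA.

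**Figure D1:**
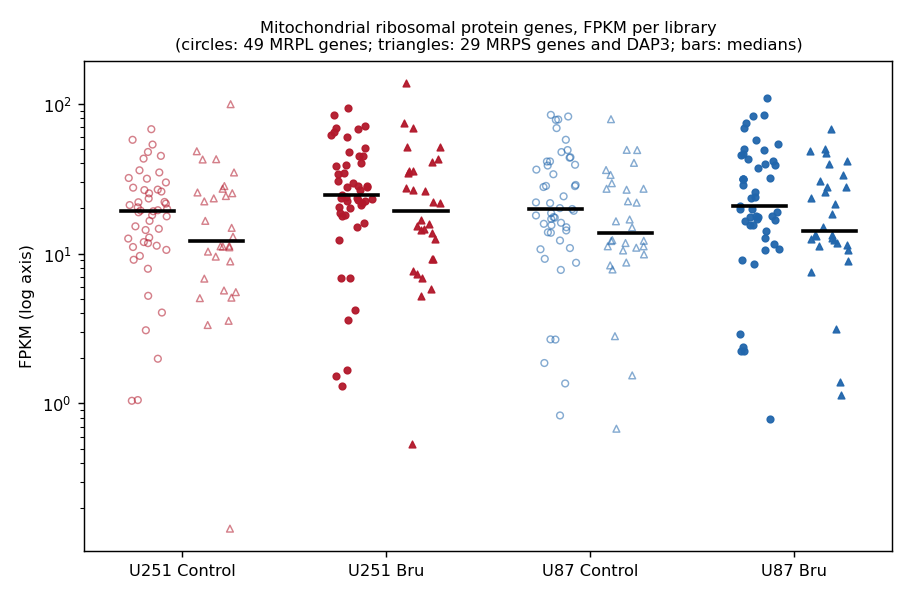
Level of each mitochondrial ribosomal protein gene in the 4 libraries, in FPKM on a log axis, with circles for the 49 large subunit genes, triangles for the 30 small subunit genes and bars for their medians. Of the 79 genes, 60 to 67 reach 10 FPKM in a library, and the triangle lowest in U251 Control, at 0.146 FPKM, is MRPS24.

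The order of levels was much alike in the Control libraries of the lines (Spearman rho 0.87 and Pearson r 0.89 on log2 FPKM over 77 genes, a description, since the genes share libraries and lengths). In the order U251 Control, U251 Bru, U87 Control, U87 Bru, which is kept for every list of 4 values below, MRPS34 (ENSG00000074071, chr16:1771890-1773155, minus strand), a small subunit protein particular to mitochondria, was at 99.2, 137, 78.8 and 68.2 FPKM, the highest mean of all members. MRPL51, of the large subunit, was at 57.4, 94.2, 84.2 and 109 FPKM, and MRPL41 at 67.6, 70.5, 78.4 and 68.3 FPKM. These 3 had the highest mean levels, and MRPL51 rather than MRPS34 led in the U87 libraries. At the low end, MRPL53 was at 1.99, 1.53, 1.36 and 2.22 FPKM, MRPL38 at 1.04, 1.31, 0.831 and 0.784 FPKM, and MRPS24 at 0.146, 0.537, 0.678 and 1.14 FPKM. MRPL38 (mean 0.992 FPKM) and MRPS24 (mean 0.626 FPKM) stayed under the mean of 1 FPKM and were not compared, so that 77 members, 48 large and 29 small, entered the counts below. The lengths used were the merged exons of all annotated transcripts, and with 16393 bases for MRPL42 its 4.04 and 1.86 FPKM in the Control libraries rest on the longest denominator of the family.

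Between the Control libraries, the median log2 ratio of U87 Control to U251 Control was 0.22 over the 77 members and -0.01 over all genes compared. It was above 0 for 49 of the 77, where the background over all genes was 49.6%. Past 2-fold, 6 were higher in U87 (background 14.5%), namely MRPL46 (1.26), MRPS35 (1.14), MRPL39 (1.12), MRPS33 (1.1), MRPL50 (1.04) and MRPS2 (1.01). Past 2-fold, 4 were lower in U87 (background 16%), namely MRPS10 (-1.11), MRPL42 (-1.08), MRPS17 (-1.07) and DAP3 (-1.06). The genes of these lists were picked after their values were seen. DAP3, a GTP-binding protein of the small subunit first described for its part in cell death, was at 25.6 and 27.2 FPKM in the U251 libraries and at 12.2 FPKM in both U87 libraries.

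The ratio of Bru to Control was computed in each line as the log2 ratio of FPKM + 0.1, and a gene is called higher or lower here where the 95% exact Clopper-Pearson interval of its read ratio, taken without the pseudocount, lay wholly above or below 0. In U251 the median log2 ratio over the 77 members was 0.51 (quartiles 0.26 and 0.82, range -0.42 to 1.28), while that of all 12949 genes was -0.03. It was above 0 in 70 of the 77 members (background over all genes 47.2%) and below 0 in 7 (background 52.1%). It was above 0.5, a 1.41-fold change, in 40 (background 14.3%), above 1 in 7 (background 3.36%), below -0.5 in 0 (background 19.1%) and below -1 in 0 (background 5.44%). By the interval, 63 were higher (background 30.9%), 5 were lower (background 35.9%) and 9 included 0.

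In U87 the median log2 ratio was 0.12 (quartiles 0.01 and 0.23, range -0.38 to 0.67), beside -0.04 for all genes. It was above 0 in 59 of the 77 (background 42.3%) and above 0.5 in 1 (background 5.75%), which was MRPL53, and no member passed 1 (background 1.92%). It was below 0 in 18 (background 56.7%), below -0.5 in 0 (background 6.46%) and below -1 in 0 (background 1.41%). By the interval, 34 were higher (background 15.7%), 4 were lower (background 28%) and 39 included 0. The number of U87 intervals that included 0 depended on the scaling, with 33 to 39 of the 77 under the 4 other scalings tried, where 33 to 41 were higher and 3 to 5 lower.

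**Figure D2:**
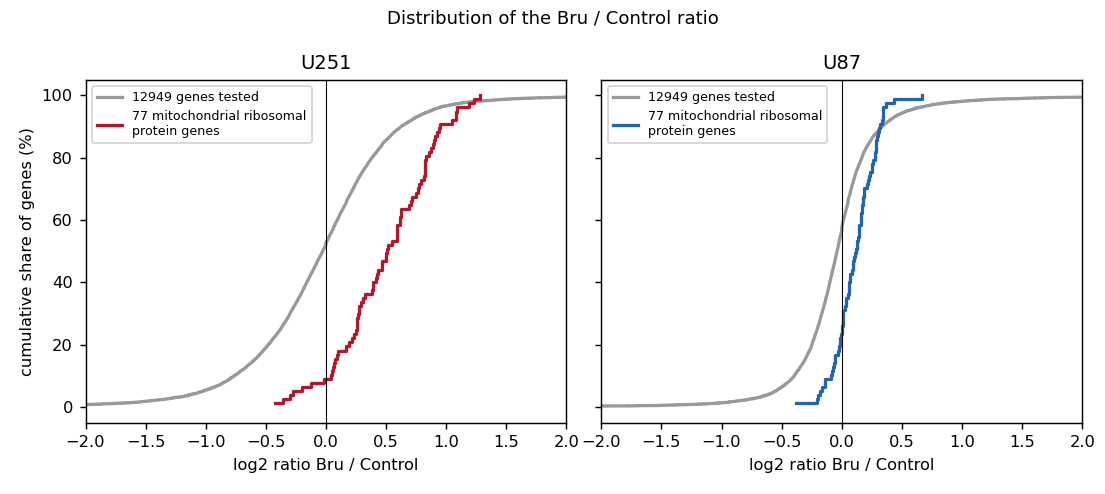
Cumulative share of genes in percent against the log2 ratio of Bru to Control, in U251 and in U87, for the 77 members and for all 12949 genes compared, with the axis cut at -2 and 2. In U251 the members' line lies to the right of that of all genes (medians 0.51 and -0.03), and in U87 the lines lie closer (0.12 and -0.04).

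The subunits were set side by side. For them and for the smaller groups below, the backgrounds by the interval were 30.9% higher and 35.9% lower in U251. The background of a U251 ratio above 0 was 47.2%. In U87 the backgrounds were 15.7% higher and 28% lower. In U251 the large subunit genes had a median log2 ratio of 0.51, with 43 of 48 above 0, 37 higher and 4 lower by the interval, and the small subunit genes one of 0.47, with 27 of 29 above 0, 26 higher and 1 lower. In U87 the medians were 0.11 for the large and 0.15 for the small subunit, with 20 and 14 genes higher and 2 and 2 lower. The symbols do not follow the structure everywhere, since MRPS30 and MRPS18A sit in the large subunit and MRPS36 belongs to the 2-oxoglutarate dehydrogenase complex. Placed by structure, the large subunit had medians of 0.55 and 0.11 over 50 genes and the small subunit 0.47 and 0.16 over 26 genes in U251 and U87. Whether the subunits differ in their ratios was not tested.

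**Figure D3:**
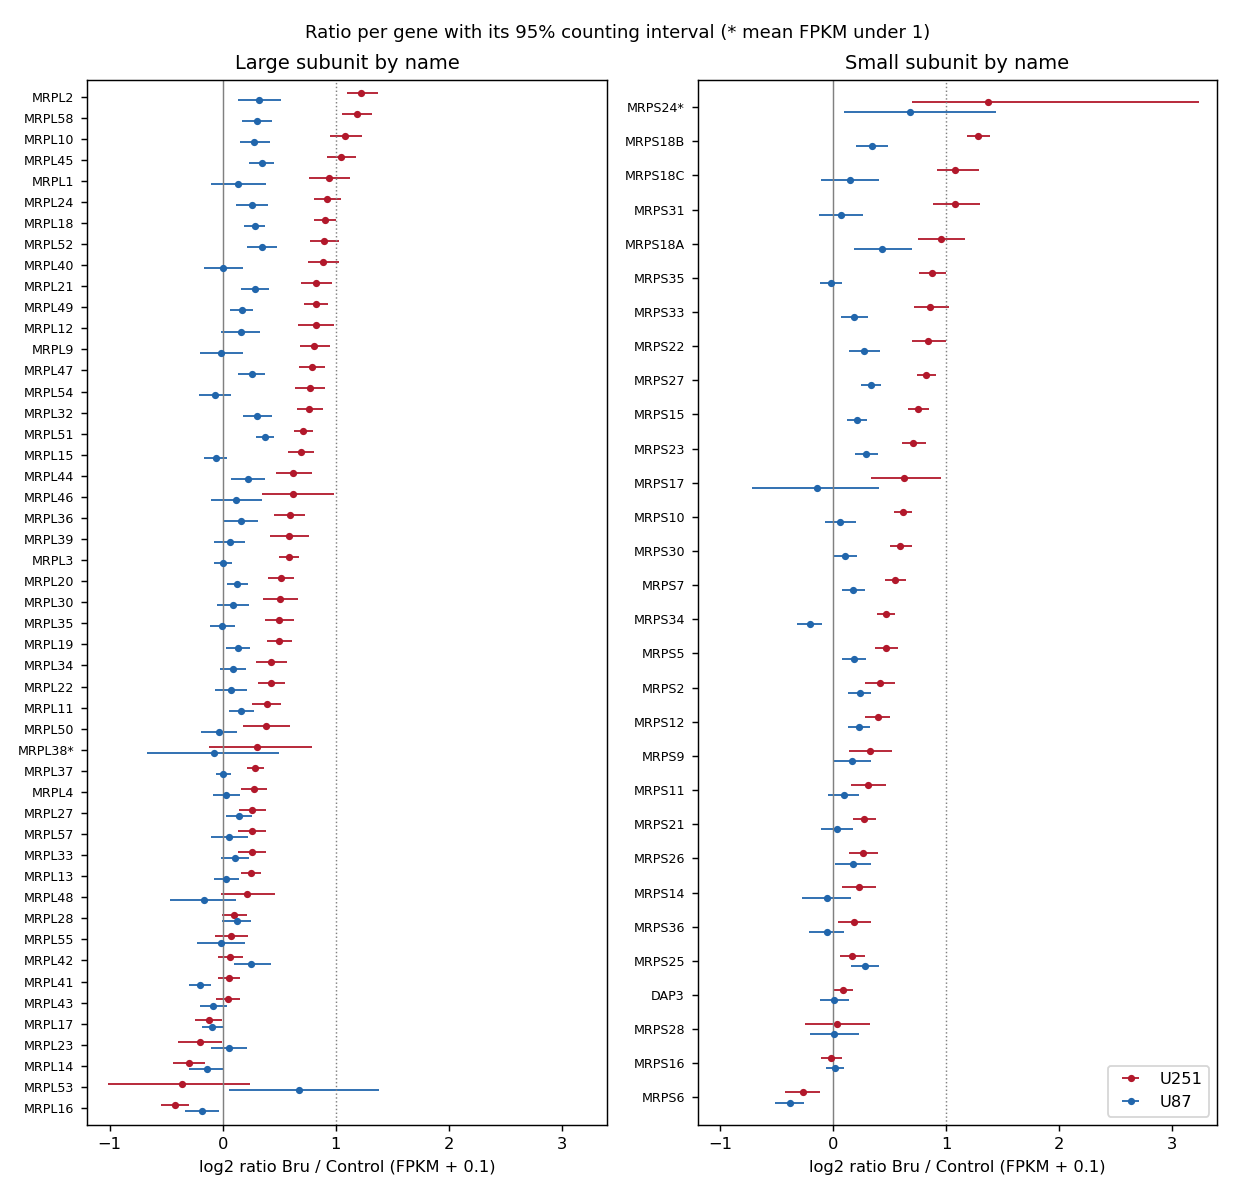
Log2 ratio of Bru to Control for each of the 79 members, in U251 and in U87, with points for the ratio and bars for the 95% exact counting interval, sorted by the U251 ratio within each subunit, a star marking the 2 genes not compared. In U251 63 of 77 intervals lie above 0, and in U87 34 of 77 do.

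Among the parts of the large subunit, the 5 genes of the stalk had medians of 0.77 (U251) and 0.16 (U87) on the log2 scale, and 4 of the 5 were higher in U251. MRPL10 (ENSG00000159111, chr17:47823272-47831534, minus strand), which anchors the stalk, was at 11.1, 23.6, 17 and 20.7 FPKM. Its log2 ratio was 1.09 in U251 (interval 0.95 to 1.23) and 0.28 in U87 (0.15 to 0.42). MRPL12, the stalk protein that binds elongation factors, was at 25.2, 44.7, 28.7 and 32 FPKM, with log2 ratios of 0.82 (0.67 to 0.98) and 0.16 (-0.01 to 0.33), and 68.2% of its exonic bases overlap AC139530.2. MRPL53 (ENSG00000204822, chr2:74471958-74473322, minus strand) stood apart from the group, with a log2 ratio of -0.36 in U251 (-1.01 to 0.24) and 0.67 in U87 (0.05 to 1.39). It rests on 56, 38, 33 and 52 reads in the 4 libraries, and 45.2% of its exonic bases overlap CCDC142.

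The central protuberance, where the large subunit meets the small one, had 7 genes compared, with medians of 0.62 (U251) and 0.12 (U87) and 5 of 7 higher in U251. MRPL58 (ENSG00000167862, chr17:75012670-75021261, plus strand), a peptidyl-tRNA hydrolase built into the ribosome that can release stalled chains, was at 29.8, 68, 43.6 and 53.8 FPKM. This was 2.28-fold in U251 (log2 ratio 1.19, interval 1.06 to 1.32) and 1.23-fold in U87 (0.30, 0.17 to 0.44), and its promoter is the ETS stretch printed above. MRPL48 had a log2 ratio of 0.22 in U251 (-0.02 to 0.46) and -0.17 in U87 (-0.47 to 0.12), so that neither was apart from 0.

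The 8 genes at the exit of the peptide tunnel had medians of 0.61 and 0.15, and in U251 6 were higher and 2 lower. MRPL45 (ENSG00000278845, chr17:38297023-38323218, plus strand), which ties the ribosome to the inner membrane, was at 21.5, 44.6, 39.1 and 49.8 FPKM. Its log2 ratio was 1.05 in U251 (0.92 to 1.18) and 0.35 in U87 (0.24 to 0.46), and its annotated pseudogene copies took 7.46% of the reads of gene and copies together. The lower 2 were MRPL23 and MRPL17, counterparts of bacterial L23 and L17. MRPL23 was at 7.92, 6.89, 12.2 and 12.7 FPKM, a log2 ratio of -0.20 in U251 (-0.40 to -0.00) and 0.06 in U87 (-0.10 to 0.21). MRPL17 was at 25.9, 23.8, 49 and 46 FPKM, a log2 ratio of -0.12 in U251 (-0.25 to -0.00) and -0.09 in U87 (-0.18 to 0.00). In U251 both intervals end next to 0, and neither gene was lower under any of the 4 other scalings tried.

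The other 19 large subunit proteins with bacterial counterparts had medians of 0.51 and 0.09, with 16 higher and 2 lower in U251 and 6 higher and 1 lower in U87. MRPL2 (ENSG00000112651, chr6:43054029-43059806, minus strand), the counterpart of L2 beside the peptidyl transferase centre, was at 11.7, 27.6, 9.22 and 11.5 FPKM. Its ratio of 2.35-fold in U251 (log2 ratio 1.23, 1.1 to 1.38) was the highest of the large subunit, and in U87 it was 0.32 (0.14 to 0.51). MRPL16 (ENSG00000166902, chr11:59806135-59810872, minus strand), the counterpart of L16 at the tRNA sites, had the lowest U251 ratio of all members. It was at 27.5, 20.5, 20.1 and 17.7 FPKM, with log2 ratios of -0.42 in U251 (-0.55 to -0.30) and -0.18 in U87 (-0.33 to -0.04), where it was no longer lower under 3 of 4 other scalings. MRPL14 was at 47.6, 38.8, 43.9 and 39.8 FPKM, lower in U251 at -0.30 (-0.44 to -0.15) and at -0.14 (-0.30 to 0.01) in U87.

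The 9 other large subunit proteins particular to mitochondria had a median of 0.29 in U251, the smallest among the groups of members. In U87 it was 0.06, and 6 of the 9 were higher in U251. MRPL52, whose promoter is the YY1 stretch printed above, was at 11.9, 22.3, 13.9 and 17.6 FPKM, with log2 ratios of 0.89 (0.77 to 1.03) and 0.35 (0.21 to 0.48). MRPL51, with the levels given before, had log2 ratios of 0.71 (0.63 to 0.80) and 0.37 (0.29 to 0.45), and 31.3% of its exonic bases overlap NCAPD2. MRPL41 had log2 ratios of 0.06 in U251 (-0.04 to 0.16) and -0.20 in U87 (-0.30 to -0.10), the 1 member that was lower in U87 while its U251 interval included 0.

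In the small subunit, the 10 proteins particular to mitochondria had medians of 0.77 (U251) and 0.18 (U87), and all 10 were higher in U251, while 6 were higher and 1 lower in U87. MRPS31 (ENSG00000102738, chr13:40729135-40771173, minus strand) was at 6.80, 14.5, 11.2 and 11.7 FPKM. This was 2.13-fold in U251 (log2 ratio 1.08, 0.89 to 1.3) and 1.05-fold in U87 (0.07, -0.13 to 0.27), and pseudogene copies took 6.16% of the reads of gene and copies. MRPS35, whose promoter holds the antioxidant element printed above, was at 22.3, 41, 49.2 and 48.5 FPKM, with log2 ratios of 0.88 (0.76 to 1.0) and -0.02 (-0.12 to 0.08). In U87 the interval of each of these 2 genes included 0. DAP3 had the smallest ratio of the 10 in U251, 0.09 (0.01 to 0.17), and 0.01 in U87 (-0.12 to 0.14).

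The 16 small subunit proteins with bacterial counterparts that were compared had medians of 0.40 and 0.12, with 13 higher and 1 lower in U251 and 7 higher and 1 lower in U87. The lower one in both lines was MRPS6, the counterpart of bacterial S6. MRPS6 (ENSG00000243927, chr21:34073224-34143034, plus strand) was at 8.86, 7.33, 14.9 and 11.5 FPKM, with log2 ratios of -0.27 (-0.43 to -0.12) and -0.38 (-0.51 to -0.26), the lowest of U87. MRPS24, not compared because of its level, had 8 and 26 reads in U251 Control and U251 Bru and 32 and 52 reads in U87 Control and U87 Bru, with log2 ratios of 1.37 (0.69 to 3.23) and 0.68 (0.09 to 1.44), and 23.2% of its exonic bases overlap URGCP-MRPS24.

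Bacterial S18 has 3 human relatives in these ribosomes, MRPS18A, MRPS18B and MRPS18C, of which the first sits in the large subunit. All 3 were higher in U251, with a median log2 ratio of 1.08, and 2 of the 3 in U87, with a median of 0.34. MRPS18B (ENSG00000204568, chr6:30617709-30626395, plus strand) was at 28.2, 68.8, 21.9 and 27.8 FPKM, and its 2.44-fold ratio (log2 ratio 1.28, 1.18 to 1.39) was the highest of all 77 members in U251, with 0.34 (0.20 to 0.49) in U87. MRPS18C (ENSG00000163319, chr4:83455932-83469735, plus strand) was at 3.56, 7.64, 2.81 and 3.12 FPKM, with log2 ratios of 1.08 (0.92 to 1.29) and 0.15 (-0.11 to 0.41). MRPS18A (ENSG00000096080, chr6:43671303-43687791, minus strand) was at 11.3, 21.9, 9.87 and 13.4 FPKM, with log2 ratios of 0.95 (0.75 to 1.17) and 0.44 (0.19 to 0.69). Exonic overlap with a neighbour was 40.2% for MRPS18C (ABRAXAS1), 47.0% for MRPS18A (RSPH9) and absent for MRPS18B. Of the other symbols that do not follow the structure, MRPS30 had log2 ratios of 0.59 (0.50 to 0.70) and 0.10 (-0.01 to 0.21), and MRPS36 of 0.19 (0.04 to 0.34) and -0.06 (-0.21 to 0.09).

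The response of the members differed in size between the lines. The ratios of all genes compared were also wider in U251 (quartiles -0.38 and 0.30) than in U87 (-0.20 and 0.12). The part of this wider spread in the members' difference was not tested. The U251 ratio was larger than the U87 ratio in 68 of the 77 members (background 50.9%), with a median difference of 0.40 on the log2 scale and of 0.01 over all genes compared. The interval of this difference was above 0 in 59 members (background 26.3%), below 0 in 3 (background 24.6%) and included 0 in 15. MRPS31 had a difference of 1.01 (0.74 to 1.3), and MRPL53, MRPL23 and MRPL16 were the 3 below 0, at -1.03 (-1.96 to -0.23), -0.25 (-0.50 to -0.01) and -0.24 (-0.43 to -0.05). In both lines 32 members were higher (background 10.1%) and 2 were lower, MRPL16 and MRPS6 (background 18%). Higher in U251 with a U87 interval that included 0 were 30 members (background 17.5%), and MRPL42 and MRPL53 were the 2 with the reverse (background 3.63%). MRPS34, the most abundant member, was higher in U251 at 0.47 (0.39 to 0.55) and lower in U87 at -0.21 (-0.32 to -0.10). It was the only member of the 77 with intervals on opposite sides of 0 in this direction (background 3.2%), and 0 had them in the reverse direction (background 1.95%). Across the 77 genes the ratios of the lines had a Spearman rho of 0.53 and a Pearson r of 0.46, beside 0.40 and 0.23 over all 12949 genes, given as a description because all points come from the same 4 libraries.

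The genes around the mitochondrial ribosome were described from lists of their own. The backgrounds by the interval were 30.9% higher and 35.9% lower in U251, and 15.7% and 28% in U87. The 4 further subunits with other symbols had medians of 0.28 and 0.22, and all 4 were higher in U251. GADD45GIP1, a large subunit protein, had the largest ratios of them, 0.72 and 0.29, and PTCD3, a small subunit protein, had 0.26 and 0.27. The 28 genes of ribosome assembly and rRNA modification had medians of 0.52 and 0.11, with 22 higher and 0 lower in U251 and 11 higher and 2 lower in U87. The list is wider than its name, since it also holds SLIRP and LRPPRC, which work together to keep mitochondrial messenger RNAs stable. SLIRP was at 21.4, 45.8, 37 and 49.2 FPKM, with log2 ratios of 1.1 and 0.41. YBEY, which takes part in building the small subunit, was at 3.61, 6.93, 8.61 and 12.1 FPKM, with log2 ratios of 0.92 and 0.49.

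The 15 translation factors had medians of 0.29 and 0.06. In U251 8 were higher (background 30.9%) and 2 lower (background 35.9%). In U87 4 were higher (background 15.7%) and 2 lower (background 28%). MTIF2, the mitochondrial initiation factor that brings the first tRNA, was at 10.2, 20.9, 24.1 and 33.5 FPKM, with log2 ratios of 1.02 and 0.47. PDF, the deformylase that acts on the first residue of new chains, went the other way, with log2 ratios of -0.78 and -0.26. The 5 genes of mitochondrial transcription had medians of 0.09 and 0.11. Against the same backgrounds, 3 (U251) and 1 (U87) were higher and 0 were lower in either line. Among them TEFM, an elongation factor, had log2 ratios of 0.56 and 0.26, and TFB2M, an initiation factor, of 0.42 and -0.11.

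The rRNAs that these proteins bind did not follow the transcripts of the protein genes in U251. MT-RNR1, the small subunit rRNA, was at 408, 348, 257 and 309 FPKM, with log2 ratios of -0.23 (-0.28 to -0.18) and 0.26 (0.21 to 0.32). MT-RNR2, the large subunit rRNA, was at 1828, 1463, 1330 and 1429 FPKM, with log2 ratios of -0.32 and 0.10. All mitochondrially encoded genes together accounted for 3.01%, 2.43%, 3.93% and 4.06% of the reads. Both rRNAs were thus lower in U251 Bru, where the transcripts of most of the protein genes were higher, and higher in U87 Bru. These are RNA levels, and the proteins themselves were not measured. How the libraries captured rRNA is not given in the sources used here, and its part in these values was not tested.

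Other families were set beside the members. The backgrounds by the interval were 30.9% higher and 35.9% lower in U251, and 15.7% and 28% in U87. For the cytosolic ribosome, 82 of 86 protein genes were compared, with medians of 0.69 and 0.32, 78 higher and 0 lower in U251, and 75 higher and 1 lower in U87. For complex I of the respiratory chain, 35 of 37 NDUF genes were compared, with medians of 0.23 and 0.10, 25 higher and 3 lower in U251, and 16 higher and 4 lower in U87. In U251 the median of the mitochondrial ribosomal proteins, 0.51, lay between those of these families. In U87 it was 0.12, next to the 0.10 of complex I, with 34 of 77 members and 16 of 35 complex I genes higher. The differences between families were not tested.

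Gene length, level and promoter letters were compared with the ratios as descriptions. The members had a median length of 2539 bases, against 4493 bases for all genes compared. Their U251 ratio had a Spearman rho of -0.10 with length and 0.10 with mean FPKM over the 77 genes, and their U87 ratio one of 0.08 and -0.05. The 28 compared members with the ETS letters had medians of 0.55 (U251) and 0.13 (U87), and the 40 without them 0.48 and 0.13. The 21 with the YY1 letters had 0.62 and 0.18, and the 47 without them 0.43 and 0.09. The differences between members with and without these letters were not tested.

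A limit of the counting is shared exons. Of the 79 members, 42 share some exonic bases with another gene and 14 share more than 20%, and whether the counting used strand is not given in the sources used here. Members that share more than 20% of their exonic bases or of their 50-base stretches were then left out. This choice was made after the data were seen, and 65 members remained. Their median log2 ratios were 0.51 (U251) and 0.12 (U87). Above 0 were 59 in U251 (background 47.2%) and 50 in U87 (background 42.3%). Annotated pseudogenes of the members, 77 of 35 parents, took 0.148% to 0.186% of the reads of members and pseudogenes together in the 4 libraries.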

How the data were processed

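Control and Bru RNA of both lines was sequenced as paired-end reads, with 1 library per condition. The authors deposited FPKM per gene with the gene lengths used. The submitters' processing notes name HISAT2 2.0.5, StringTie 1.3.3b, featureCounts 1.5.0-p3 and DESeq2 1.16.1 without their roles, and a build hg18, but the deposited coordinates of all 58735 genes equal those of GENCODE 29 (GRCh38). FPKM multiplied by length was a whole multiple of 1 step in each library (largest deviation 5.3e-05 reads), which gave reads per gene and the library size inside the FPKM, 17406238 to 20974002. No count test was run on these reads, since each condition has 1 library.

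Groups were taken from the labels. Within a line, Bru was divided by Control on the log2 scale after adding 0.1 to the FPKM, and genes under a mean of 1 FPKM were left out. Counting intervals at 95% were the exact Clopper-Pearson interval of a gene's share of reads in the Bru library, scaled by the library sizes inside the FPKM, and a normal interval for differences between lines. Gene lists were described by medians and counts beside those of all genes compared. The members and lists were chosen with earlier results of these data known.

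The genes named were the members past 2-fold, the 5 highest and 5 lowest ratios in each line, the 3 highest and 3 lowest mean levels, opposite intervals, the 5 largest differences between lines, the MRPS18 genes, MRPS30, MRPS36, DAP3 and MRPL12, 2 genes per list, and per motif the member with the highest U251 ratio that held it before its start. Other genes in the text were picked after their values were seen. Alternatives were the pseudocount (1 or 0.01), 4 scalings, the filter (none, 0.1 or 5 FPKM) and the placing of members. The scripts, tested on simulated data, used Python 3.11.15, NumPy 2.4.6, SciPy 1.17.1, pandas 2.3.3 and Matplotlib 3.10.9.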

Additional observations from a re-analysis of the deposited data

Results flagged for a closer look

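MRPS34, a small subunit protein particular to mitochondria, was set aside for a closer look because it moved in opposite directions in the lines. Its log2 ratio of Bru to Control was 0.47 in U251 and -0.21 in U87, and the counting intervals lay on opposite sides of 0. MRPS34 was the only 1 of the 77 members compared with this pattern, beside 3.2% of all genes compared. The difference between the lines was not tested against the spread of replicates, since there is 1 library per condition.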

How the results depend on the processing

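Over all alternatives the median log2 ratio of the members ranged from 0.47 to 0.59 (U251) and from 0.11 to 0.17 (U87), and no called value among the results recomputed reversed its direction. Of the main results under an alternative, 115 stayed close to the values reported and 5 moved, all of them the number of members with a U87 ratio above 0.5, which was 1 in the values reported. It was 0 with a pseudocount of 1, 0 at a minimum mean of 5 FPKM, 2 with no filter, 2 at a minimum of 0.1 FPKM and 0 without the members that share over 20% of their exonic bases or stretches, the last added after seeing the data. The number above 1 in U251 ranged from 5 to 10. Other scalings moved the ratios of a line by at most 0.09, with 63 members still higher in U251, while MRPL17 and MRPL23 in U251 and MRPS9 and MRPL16 in U87 lost their calls under at least 1 of them. No paired analysis was possible because each condition has 1 library and no replicate number. Depth leaves wide intervals for MRPL53, MRPL38 and MRPS24, and no value here has an error between cultures.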

Other observations

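Several members start back to back with another gene. A protein-coding neighbour on the other strand started within 1000 bases in 17 of the 79 members (21.5%), against 1105 of 10845 protein-coding genes compared (10.2%). MRPS11 and MRPL46 start 34 bases apart and are partners of each other, with log2 ratios of 0.31 and 0.62 in U251 and 0.09 and 0.12 in U87. MRPL47 starts 36 bases from NDUFB5, and MRPL36 starts 34 bases from NDUFS6, both complex I genes. MRPL18 starts 63 bases from TCP1, a subunit of the cytosolic chaperonin, and had log2 ratios of 0.90 (U251) and 0.28 (U87), while TCP1 had 0.05 and -0.10. The 13 partners that were compared had medians of 0.31 (U251) and 0.12 (U87), with 10 of 13 above 0 in U251 (background 47.2%). The members beside them had medians of 0.59 and 0.12. The MRPS11 and MRPL46 pair counts on both sides of this comparison and is among the 10 partners above 0. The partner medians are the values of this pair itself, MRPS11 in U251 and MRPL46 in U87. MRPL46 also gives the U87 median of the members. These medians thus do not describe neighbours outside the family.

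By chromosome, 3 of the 7 members with a U251 log2 ratio above 1, MRPL58, MRPL45 and MRPL10, lie on chromosome 17, where the 7 members had a median of 0.82 and all genes compared one of -0.02. On chromosome 6 the 6 members compared had a median of 0.93, with 2 above 1, MRPL2 and MRPS18B, and all genes compared one of -0.03. The background of a U251 ratio above 1, over all chromosomes, was 3.36%. Both chromosomes were picked from the 21 after their values were seen. Whether the members on them differ from those elsewhere was not tested.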
